A study of Mus musculus with 6 samples.

Results

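Malat1, Neat1, Firre, Pvt1, Dleu2, Gm42418 and Gm26917 are 7 noncoding RNAs that were selected on their CPM, the counts scaled to the total of a library, because it differed strongly between the libraries of sorted tumor cells. They are 7 of the 47643 gene identifiers in the deposited files, and all 7 were among the 12088 genes that passed the filter on low counts. The levels and their spread are therefore given as a description, without a test. The cells were FACS-sorted CD45-EPCAM+ cells from 6 breast tumors of MMTV-PyMT mice of the strain FVB/N-Tg(MMTV-PyVT)634Mul/J. In these mice, a viral promoter active in the mammary epithelium drives the polyoma middle T antigen. Every animal received B20-4.1.1, an antibody against VEGF-A, at 5 mg/kg into the peritoneum, 2 times per week for 6 weeks, starting at 7 weeks of age, so that the 6 tumors form 1 group and no untreated tumor was analysed here. The labels do not give the hypoxia class of a tumor, and values are listed for tumors 1 to 6 as the labels number them. The letter code of the mouse identifiers is QAF for tumors 1, 4, 5 and 6 and QSD for tumors 2 and 3. Its meaning is not stated. Nothing in the labels says that the 6 samples came from separate animals beyond their separate identifiers, so the p-values below measure the spread between these samples.

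Most RNAs leave the nucleus to be translated, whereas several long noncoding RNAs are retained there and act as scaffolds. Malat1 accumulates in nuclear speckles, the storage sites of splicing factors, and Neat1 is the RNA core of paraspeckles, bodies that hold RNA-binding proteins and edited transcripts. Both are studied in tumors, where their levels can change with stress and oxygen supply, and both carry a 3′ end in which a genome-encoded A-rich tract folds into a triple helix with upstream U-rich sequence, in place of a poly(A) tail. Neat1 also has a short form with an ordinary poly(A) tail. The libraries were made with a 3′ kit (QuantSeq FWD), in which reverse transcription starts from an oligo(dT) primer that pairs with a stretch of A.

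The 3′ ends of Malat1 and Neat1 are shown because their A-rich tracts are among the places from which an oligo(dT)-primed read could come. Sequences are those of GENCODE M21 transcripts on GRCm38. In the lines below, capitals mark the longest stretch shared by the U-rich region of Malat1 and the end of long Neat1 (16 bases) and the longest stretch shared after it (11 bases). The Malat1 window is chr19:5795916-5796039 and the Neat1 window is chr19:5824708-5824787, both on the minus strand and written 5′ to 3′.
Malat1-201: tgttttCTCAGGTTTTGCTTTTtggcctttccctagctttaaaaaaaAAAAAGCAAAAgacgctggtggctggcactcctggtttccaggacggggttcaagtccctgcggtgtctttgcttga
Neat1-201: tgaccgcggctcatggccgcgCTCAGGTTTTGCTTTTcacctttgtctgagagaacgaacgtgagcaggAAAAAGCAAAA
The first stretch was found in the longest transcripts of 2 of 12068 genes, which are Malat1 and Neat1 themselves. The second was found in 151 genes (1.25%). The Malat1 tract holds a run of 12 A and lies 298 bases before the annotated end of the transcript, and 12.3% of genes had a run of A at least as long. In Neat1-201 the second stretch is the last sequence of the transcript, while its longest run of A (7 bases) lies 11226 bases before the end.

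The annotated ends shown next carry the hexamer AATAAA, a poly(A) signal, within the last 60 bases, marked in capitals below. They are shown as places at which a poly(A) tail can be added. The Malat1-201 end belongs to the same transcript as above, 298 bases past its run of A. A form that stops at the tract lacks it. The windows are chr19:5842307-5842366 (Neat1-202), chr19:5795690-5795749 (Malat1-201), chrX:50563125-50563184 (Firre-206), chr15:62378037-62378096 (Pvt1-202) and chr14:61632349-61632408 (Dleu2-202), the first 3 and the last on the minus strand.
Neat1-202: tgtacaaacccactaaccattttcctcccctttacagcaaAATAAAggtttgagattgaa
Malat1-201: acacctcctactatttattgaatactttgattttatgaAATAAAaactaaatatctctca
Firre-206: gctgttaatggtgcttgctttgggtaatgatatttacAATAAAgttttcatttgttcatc
Pvt1-202: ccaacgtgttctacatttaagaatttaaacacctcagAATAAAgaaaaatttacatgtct
Dleu2-202: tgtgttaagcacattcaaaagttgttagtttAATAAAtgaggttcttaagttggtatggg
On the sense strand, AATAAA stood in the last 60 bases of the longest transcript of 58.6% of the 12068 genes. It was present at the end of 3 of 4 transcripts of Malat1, 1 of 4 of Neat1, 5 of 10 of Firre, 6 of 10 of Pvt1 and 4 of 15 of Dleu2.

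Gm42418 and Gm26917 fit the description of nuclear long noncoding RNAs poorly. They lie side by side on the plus strand of chromosome 17, and RefSeq (GRCm38.p6) lists Gm42418 as a synonym of Rn18s-rs5, a pseudogene related to 18S ribosomal RNA that covers 68.0% of the GENCODE gene. Gm26917 ends 12 bases before Rn18s-rs5 begins. The sequence around the stretch richest in A of each is shown because neither had AATAAA near its end, and capitals mark its longest run of A, 6 bases in Gm42418 (chr17:39847147-39847206) and 4 in Gm26917 (chr17:39845136-39845195).
Gm42418-201: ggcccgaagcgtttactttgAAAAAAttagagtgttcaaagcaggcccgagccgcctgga
Gm26917-202: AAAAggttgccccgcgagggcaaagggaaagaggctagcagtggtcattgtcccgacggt
Their GC contents of 60.2% and 69.1% were above the median of 49.4% over the genes, and 3.26% and 0.0580% of genes had a higher value. Of the 12068 genes, 66.4% had a run of A as long as that of Gm42418.

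Malat1 (ENSMUSG00000092341, GRCm38 chromosome 19, 5795690 to 5802672, minus strand, a single exon of 6983 bases) was low in tumor 1 and abundant in the rest. Its counts were 764, 30389, 25533, 71564, 45939 and 61307 in tumors 1 to 6 in turn. As levels, these are 130, 12110, 6192, 15222, 9173 and 11969 CPM. Tumor 1 lay far below the other 5, whose counting intervals (95%, exact Poisson) parted all neighbours except tumors 6 and 2. The highest value was 117 times the lowest, and 2.46 times without tumor 1. Of the 12088 genes, 11 had a larger ratio, which was taken against the level of 3 counts where a gene was at 0. The dispersion of Malat1 in edgeR, its variance beyond counting noise, was 8.87 times the trend over genes of like abundance, and 38 genes exceeded that.

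Neat1 (ENSMUSG00000092274, chromosome 19, 5824708 to 5845478, minus strand), which lies 22035 bases from Malat1, did not share this pattern. Its levels were 1663, 3841, 3038, 2440, 1106 and 789 CPM in tumors 1 to 6 in turn, from at least 4043 counts in each. Tumors 2 and 3 were the highest and tumors 5 and 6 the lowest, and all neighbours in the order were apart beyond counting error. The highest level was 4.87 times the lowest, a ratio that 16.4% of genes exceeded. The gene-level counts do not separate the short from the long form, since the exons of the short form lie inside the long one.

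Within a library, the counts of Malat1 over those of Neat1 gave 0.0780, 3.15, 2.04, 6.24, 8.29 and 15.2 in tumors 1 to 6 in turn. Neat1 outnumbered Malat1 in tumor 1, and Malat1 outnumbered Neat1 in the other 5. These ratios are of counts in the same library and do not depend on how libraries are scaled.

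**Figure D1:**
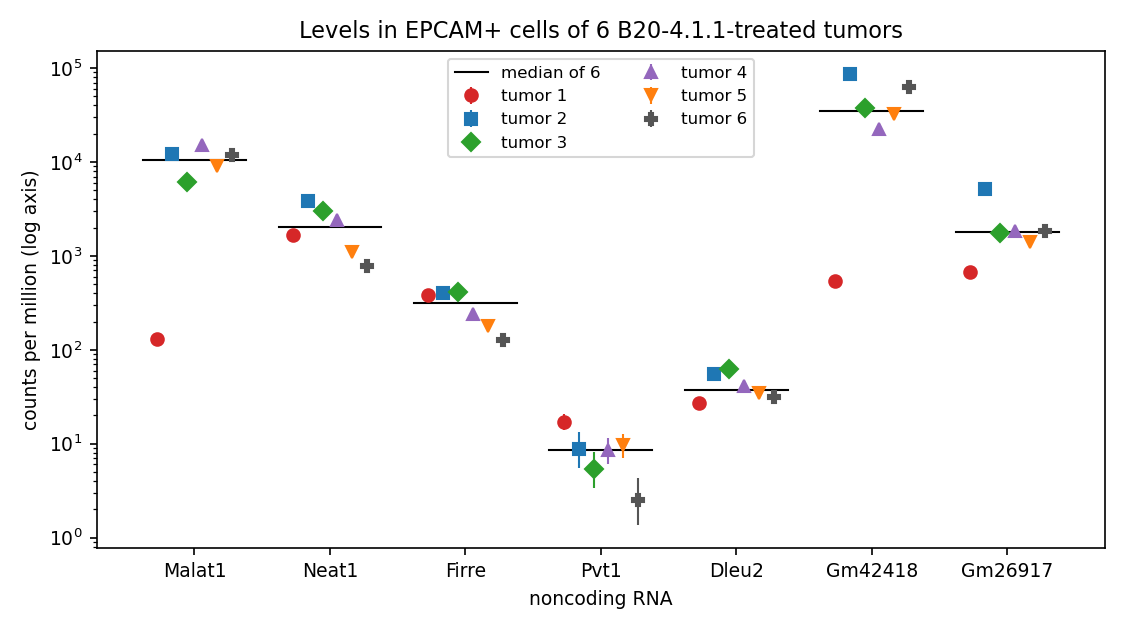
Level of each of the 7 noncoding RNAs in CPM on a log axis, with a symbol for each tumor, a bar for the exact Poisson interval of its counts (hidden by the symbol where short) and a line at the median of the 6 tumors. Tumor 1 sits at 130 CPM for Malat1 and 539 CPM for Gm42418, far under the other 5, but not for Neat1, Firre or Pvt1.

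Firre (ENSMUSG00000085396, chromosome X, 50555744 to 50635321, minus strand, 10 transcripts), an X-linked RNA whose repeats bind the nuclear matrix protein Hnrnpu, was spread less widely. It had 385, 404, 412, 240, 178 and 127 CPM in tumors 1 to 6 in turn. Tumors 1, 2 and 3 did not differ beyond counting error, and tumors 4, 5 and 6 lay below them and apart from each other. The ratio of highest to lowest was 3.23, and 32.4% of genes had a larger one. Hnrnpu itself had 131 to 302 CPM.

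Pvt1 (ENSMUSG00000097039, chromosome 15, 62037986 to 62378096, plus strand), the host of several microRNAs and a neighbour of Myc, was the least abundant of the 7. Its counts were 101, 22, 22, 40, 48 and 13 in tumors 1 to 6 in turn, or 17.1, 8.77, 5.33, 8.51, 9.58 and 2.54 CPM. Tumor 1 was apart from tumor 5, the next below it, and no other neighbours in the order were apart. The ratio of 6.75 fell to 3.78 without tumor 1 and to 3.21 without tumor 6, so it rests on counts of 101 and 13. Myc, with 3.71 to 11 CPM, was highest in tumor 5.

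Dleu2 (ENSMUSG00000097589, chromosome 14, 61602839 to 61682373, minus strand, 15 transcripts), the host gene of the miR-15a and miR-16-1 cluster, varied least. Its levels were 26.8, 55.0, 62.1, 40.6, 34.7 and 31.0 CPM in tumors 1 to 6 in turn, from 138 to 256 counts. Tumors 2 and 3 were the highest, and no neighbours in the order were apart beyond counting error. The ratio of 2.32 was exceeded by 57.4% of genes, so the rule that the RNAs differ strongly between libraries describes Dleu2 poorly. Its locus holds 5 other genes on the same strand, with 307 counts over the 6 tumors, and 8 on the opposite strand, with 63 counts. Gm37472 and Gm37420, 2 of the former, are models inside the locus that were lowest in tumor 1. As CPM, Gm37472 was highest in tumor 4 (13.0), and Gm37420 was level in tumors 4 and 2 (9.57 and 9.56). The former had 4, 20, 22, 61, 28 and 26 counts and the latter 2, 24, 13, 45, 21 and 17 counts in tumors 1 to 6. These were named after their values were seen. The use of strand in counting is not given in the sources used here. Gm42418 lies inside CT010467.1, an rRNA gene on the opposite strand, which had 11 counts over the 6 tumors. Ambiguous reads, which overlap several genes, were 0.327 to 0.501% of a file, so reads at that locus were told apart by strand. Reads of genes that overlap on the same strand stay uncertain.

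Gm42418 (ENSMUSG00000098178, chromosome 17, 39846958 to 39848788, plus strand) was the most abundant of the 7. It had 539, 87633, 37534, 22493, 32193 and 63306 CPM in tumors 1 to 6 in turn. As for Malat1, tumor 1 lay far below the other 5. The highest level was 163 times the lowest, a ratio that 4 genes exceeded, and 3.90 times without tumor 1.

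Gm26917 (ENSMUSG00000097971, chromosome 17, 39843013 to 39846341, plus strand) had 681, 5124, 1747, 1843, 1420 and 1862 CPM in tumors 1 to 6 in turn. Tumor 2 was the highest and tumor 1 the lowest, and the remaining 4 lay close together. The ratio of 7.53 fell to 3.61 without tumor 1 and to 2.73 without tumor 2. Counts of Gm42418 over those of Gm26917 were 0.792, 17.1, 21.5, 12.2, 22.7 and 34.0 in tumors 1 to 6 in turn. In tumor 1 the neighbours were thus near parity, while in the other 5 Gm42418 was at least 12.2 times as abundant.

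**Figure D2:**
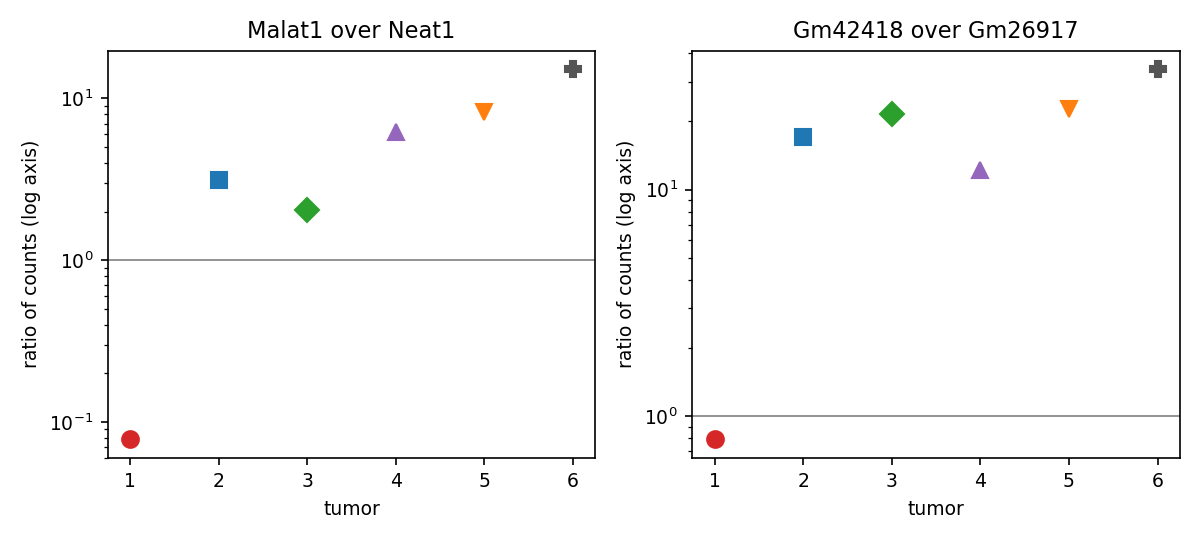
Ratio of the counts of Malat1 to those of Neat1 (left) and of Gm42418 to those of Gm26917 (right) within each library, on log axes, with 1 point per tumor and a grey line at equal counts. Tumor 1 lies below 1 in both panels, at 0.0780 and 0.792, and the other 5 lie above it.

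As a set, 5 of the 7 RNAs had a highest level at least 4 times the lowest, a share that the rule itself favours, beside 22.9% of the 12088 genes. Without tumor 1, only Neat1 of the 7 passed this mark, beside 9.75% of genes, and without tumor 2 or without tumor 6 there were 3. In 2 of the 7, Malat1 and Gm42418, the gap between tumor 1 and the next tumor was above Dixon's 95% critical value for 6 values, as a share of the range on the log2(CPM + 1) scale. Some tumor stood apart in this way in 12.9% of all genes, and in 78.4% of those it was tumor 1. Malat1, Dleu2, Gm42418 and Gm26917, 4 of the 7, were lowest in tumor 1, as were 28.8% of genes, and the others, Neat1, Firre and Pvt1, were lowest in tumor 6. Nothing was read from these counts about the set, since the same values chose it. The shares of counts that the 7 RNAs took together were 0.344%, 10.9%, 4.90%, 4.23%, 4.41% and 7.81% in tumors 1 to 6 in turn, most of it from Gm42418 in tumors 2 to 6.

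**Figure D3:**
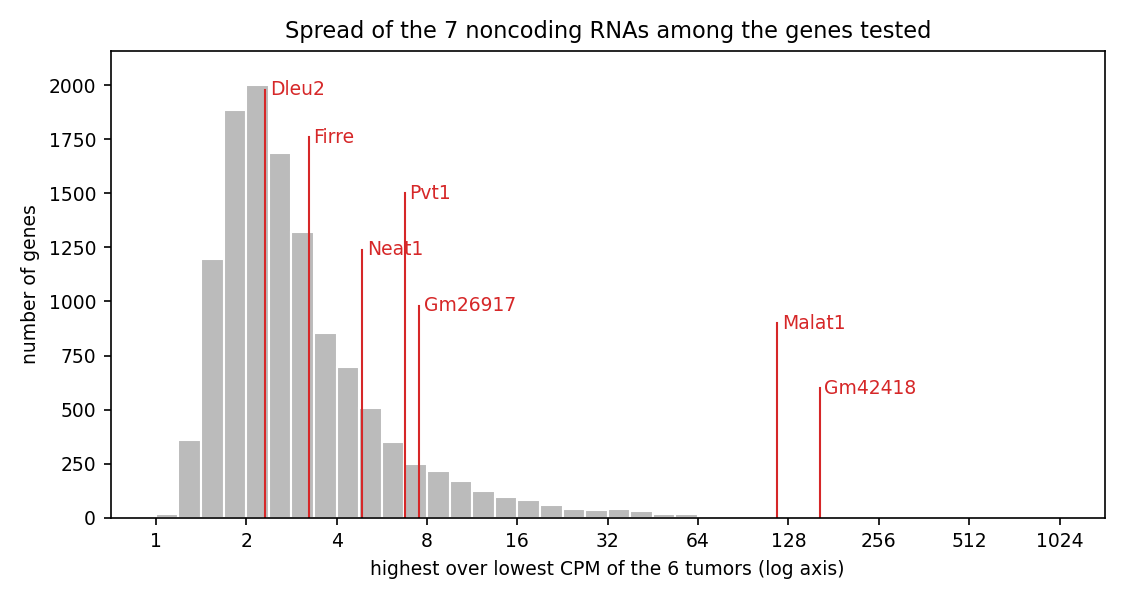
Histogram of the ratio of highest to lowest CPM over the 6 tumors (log axis) for the 12088 genes tested, with a red line at the ratio of each of the 7 noncoding RNAs. The height of a red line carries no value. Dleu2, at 2.32, lies near the peak, and Malat1, at 117, and Gm42418, at 163, lie in the far tail.

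Across the 6 libraries, counts on genes ranged from 2509482 to 5893246, the largest being that of tumor 1, and the share of reads in no annotated feature ranged from 15.6% in tumor 1 to 41.0% in tumor 2. The mitochondrial ribosomal RNAs took 0.264% of the counts in tumor 1 and 1.70 to 4.98% in the other 5. Summed luminal markers, Epcam among them, lay between 3957 and 4874 CPM, which accords with the label of epithelial tumor cells. The 3 endothelial markers summed to at most 3.88 CPM and the 4 fibroblast markers to at most 23.8 CPM. Basal markers summed to 130 CPM in tumor 3 and 501 CPM in tumor 5, which also has the highest mean of the hypoxia genes Vegfa, Slc2a1 and Car9, with 144 to 286 CPM in the others. All 4 basal markers that passed the filter had a highest level at least 4 times the lowest, beside 22.9% of all genes. All 4 had a positive log2 slope per doubling of that mean, beside 5657 of the 12088 genes. The edgeR slopes were 0.71 ± 0.51 for Krt14, 0.54 ± 0.65 for Krt5 and 0.58 ± 0.70 for Trp63. Krt5 and Trp63 were highest in tumor 4, with at most 82 and 75 counts. DESeq2 called 1 of the 4, Krt17 (edgeR slope 1.97 ± 0.37, adjusted p = 0.500). Immune markers reached 215 CPM and erythroid markers 778 CPM in tumor 3, and tumor 1 had 36.3 and 63.3 CPM. The part of these differences in the levels of the 7 RNAs was not tested. In a bulk sample, fewer cells of a type and less RNA per cell cannot be told apart.

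The 7 RNAs fell into different patterns over the tumors, which is given as correlations of log2(TMM-scaled CPM + 1) without p-values, since the points share libraries and depth. Neat1 and Firre had an r of 0.85 over the 6 tumors and 0.96 over the 5 without tumor 1. Dleu2 had an r of 0.75 with Neat1 and 0.45 with Firre over 6, and of 0.90 and 0.98 over 5. These 3 RNAs thus ran together in tumors 2 to 6, with tumors 2 and 3 high and tumors 5 and 6 low. Tumors 2 and 3 are also the only ones with code QSD, so code and tumor can barely be told apart in this pattern. Malat1 and Gm42418 had an r of 0.95 over the 6 tumors but 0.19 without tumor 1, so the likeness of this pair rests on tumor 1. Gm42418 and Gm26917 kept an r of 0.77 without tumor 1, from 0.84 with it. Malat1 and Neat1, neighbours on chromosome 19, had an r of 0.09 over the 6 and -0.12 over the 5.

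The profiles most like each RNA among the 8867 genes whose mean level was 10 CPM or more were found by the same measure over the 6 tumors. For Malat1 they were Ankrd49, Palmd and Ankhd1 (r of 0.999, 0.998 and 0.998), and 818 genes had an r of at least 0.9. For Gm42418 they were Upf2, Abcb8 and Gm21092 (0.996, 0.995 and 0.994), and 540 genes reached 0.9. For Malat1, these r were 0.962, 0.998 and 0.999 without tumor 1, which stood apart for both RNAs. For Gm42418, they were 0.960, 0.938 and 0.926. Over the 6 tumors, a gene low in tumor 1 alone can reach such an r, and the genes were not counted without tumor 1. The other RNAs, in none of which a tumor stood apart, had fewer such genes. Neat1 was nearest to Kdm2a, Ttf2 and Gm17491 (0.995, 0.995 and 0.989), with 133 genes at 0.9 or above. Firre was nearest to Prpf40b, Casc3 and Ogt (0.999, 0.992 and 0.991), with 209 genes. Among the genes nearest to Pvt1 were Fancc and Pik3ip1 (0.983 and 0.975), with 36 genes at 0.9 or above. Dleu2 was nearest to Eif2a, Rabggta and Caprin2 (0.994, 0.991 and 0.988), with 121 genes. Among those nearest to Gm26917 were Auts2 and Rnf20 (0.996 and 0.992), with 230 genes. Over 6 points, such values describe these libraries only.

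The study asked how treated tumors differ with hypoxia, so each gene was fitted against a hypoxia score, the mean TPM (counts scaled by gene length and library) of Vegfa, Slc2a1 and Car9, on which the RNAs were not chosen. The score was 48.5, 37.2, 51.4, 76.6, 94.4 and 47.3 in tumors 1 to 6 in turn. No change with the score was detectable for any of the 7. The slopes, as log2 change per doubling of the score with SE and n = 6 tumors, were -0.79 ± 0.47 for Firre, -0.78 ± 0.57 for Neat1, 0.19 ± 1.11 for Malat1 and 0.05 ± 0.66 for Pvt1. They were -0.34 ± 0.39 for Dleu2, -1.05 ± 1.11 for Gm42418 and -1.0 ± 0.57 for Gm26917. Single tumors moved these slopes. Without tumor 2, they were -0.096 ± 0.76 for Neat1, -0.042 ± 0.51 for Dleu2, -0.40 ± 1.53 for Gm42418 and 0.11 ± 0.63 for Gm26917, and without tumor 5, -0.42 ± 0.82 for Neat1 and -1.87 ± 1.78 for Gm42418. The smallest adjusted p of the 7 was 0.954 (edgeR's quasi-likelihood test, Benjamini-Hochberg over 12088 genes). None of the 12088 genes had an adjusted p under 0.05 (0.0%), while 512 (4.24%) had an unadjusted p under 0.05 and DESeq2 called 15 genes. The standard errors for Malat1 and Gm42418 exceed 1, so a change of 2-fold per doubling of the score lay within the error for either. Without tumor 1, the slopes of Gm26917 and Gm42418 were -1.17 ± 0.36 and -1.27 ± 0.42, with adjusted p of 0.448 and 0.454 by edgeR. With the letter code of the mouse identifiers as a second term, Neat1 had 0.15 ± 0.65 and Dleu2 0.26 ± 0.38, of opposite sign, and Firre -0.41 ± 0.56. Tumors 2 and 3 are the only ones with code QSD, so what differs by code and what differs by tumor can barely be told apart.

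The share of reads that fell in no annotated feature includes reads from introns and from unannotated RNA. It was 15.6%, 41.0%, 28.5%, 30.5%, 23.1% and 20.7% in tumors 1 to 6 in turn. Every RNA but Pvt1 had a positive slope on this share over the 6 tumors, beside 45.3% of all genes. None passed adjustment over all genes. Per 10 percentage points, the log2 slopes with SE were 0.94 ± 0.21 for Gm26917, 0.70 ± 0.23 for Neat1 and 0.45 ± 0.17 for Dleu2, with unadjusted p of 0.00201, 0.0143 and 0.0273 and adjusted p of 0.279, 0.288 and 0.319 in edgeR's quasi-likelihood test. These 3 of the 7 are read beside the 14.3% of genes (1733) with an unadjusted p under 0.05. The slopes were 0.75 ± 0.78 for Malat1, 0.82 ± 0.70 for Gm42418, 0.23 ± 0.25 for Firre and -0.22 ± 0.33 for Pvt1. No gene passed in edgeR (0.0%), whereas DESeq2 called 215 genes, 193 with a positive and 22 with a negative slope. Gm26917 was 1 of these, with a slope of 0.96 and an adjusted p of 0.0119 in DESeq2, and over all alternatives its adjusted p ranged from 0.0119 to 0.601.

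Leaving out tumor 1 moved Firre from 0.23 to 0.74 ± 0.22 (edgeR adjusted p = 0.152) and Neat1 to 1.09 ± 0.23 (adjusted p = 0.107). It moved Malat1 to 0.10 ± 0.26 and Gm42418 to 0.32 ± 0.31, so the positive slopes of this pair over the 6 tumors rest largely on tumor 1. Leaving out tumor 2 moved Firre to 0.011 ± 0.41 and Malat1 to 1.66 ± 1.52. Leaving out tumor 6 moved Gm42418 to 1.82 ± 0.75 (edgeR adjusted p = 0.376), Malat1 to 1.55 ± 0.97 and Firre to 0.15 ± 0.23. With the letter code as a second term, edgeR gave slopes of 0.44 ± 0.32 for Neat1, 0.22 ± 0.22 for Dleu2, -0.20 ± 0.33 for Firre and 1.03 ± 0.38 for Gm26917.

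**Figure D4:**
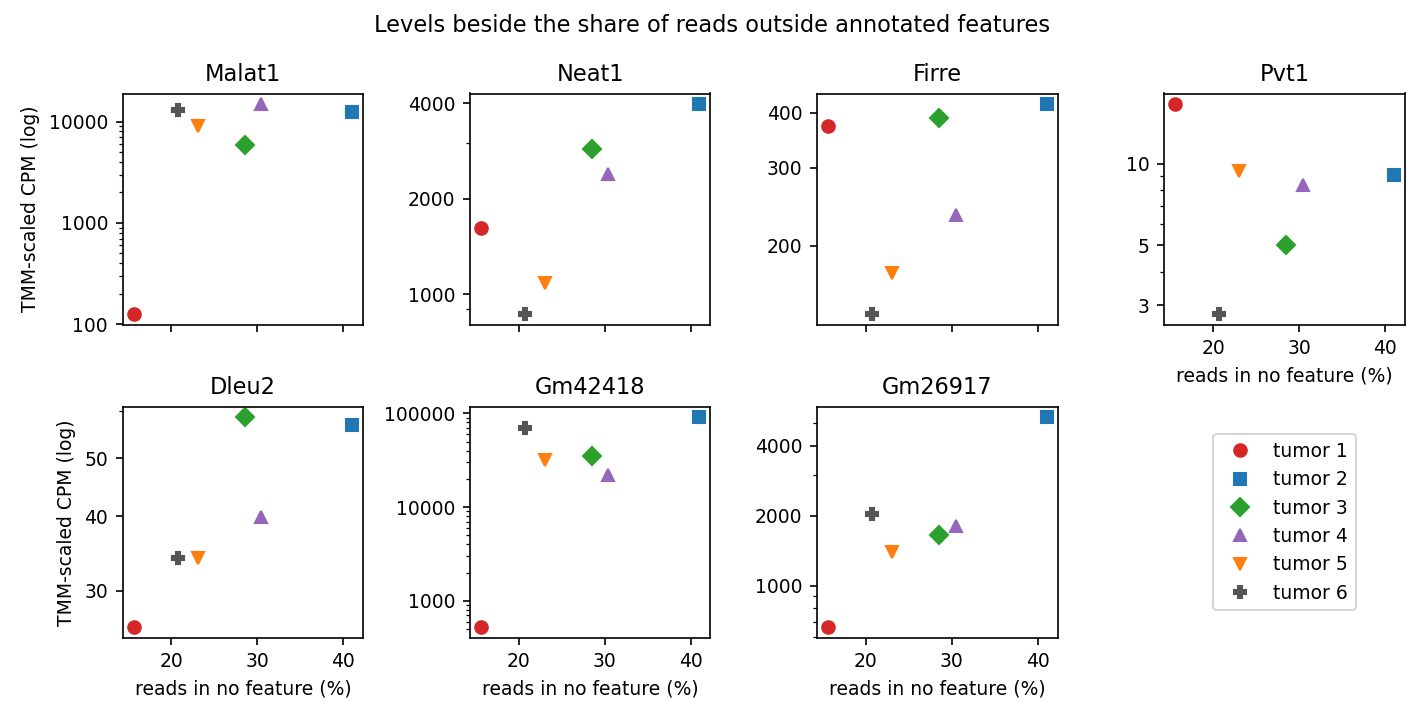
TMM-scaled CPM of each of the 7 noncoding RNAs (log axes, 1 panel each) against the percent of reads in no annotated feature, with 1 symbol per tumor. Neat1 runs upward among tumors 2 to 6, and Malat1 and Gm42418 are low only in tumor 1, the library with 15.6% of such reads.

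Correlations over the 6 tumors, with exact two-sided permutation p over 720 orders, were computed for the 5 RNAs without a tumor that stood apart, against both measures, 10 relations in all and with p-values not adjusted. With the share of reads in no feature, r was 0.89 for Gm26917 (exact permutation p = 0.0306, rho 0.66, p = 0.175), but -0.08 without tumors 1 and 2, the ones farthest from the median share, so it rests on them. For Dleu2, r was 0.85 (exact permutation p = 0.0361, rho 0.77, p = 0.103) and 0.65 without those tumors. Neat1 had an r of 0.79 (exact permutation p = 0.0569, rho 0.77, p = 0.103), which was 0.95 without them. Firre had 0.41 (exact permutation p = 0.414, rho 0.54, p = 0.297) and Pvt1 -0.08 (p = 0.867, rho -0.20, p = 0.714), which became 0.79 and 0.47. With the score, r lay between -0.52 for Firre (exact permutation p = 0.288, rho -0.37, p = 0.497) and 0.14 for Pvt1 (p = 0.797, rho 0.20, p = 0.714). Between them were Neat1 at -0.40 (exact permutation p = 0.431, rho -0.26, p = 0.658), Gm26917 at -0.38 (p = 0.460, rho -0.60, p = 0.242) and Dleu2 at -0.32 (p = 0.540, rho -0.20, p = 0.714). Without tumors 4 and 5, the farthest on the score, these became -0.23 for Firre, -0.21 for Pvt1, -0.49 for Neat1, -0.79 for Gm26917 and -0.35 for Dleu2. Within the 4 tumors of code QAF, given as a description, r with the share of reads was 0.95 for Dleu2, 0.70 for Gm26917, 0.48 for Neat1, -0.31 for Firre and -0.23 for Pvt1. With the score it was 0.56 for Dleu2, 0.26 for Gm26917, 0.22 for Neat1, -0.21 for Firre and 0.21 for Pvt1, so the signs of Dleu2, Gm26917 and Neat1 were opposite to those over the 6. Code QSD has 2 tumors, too few for a correlation.

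**Figure D5:**
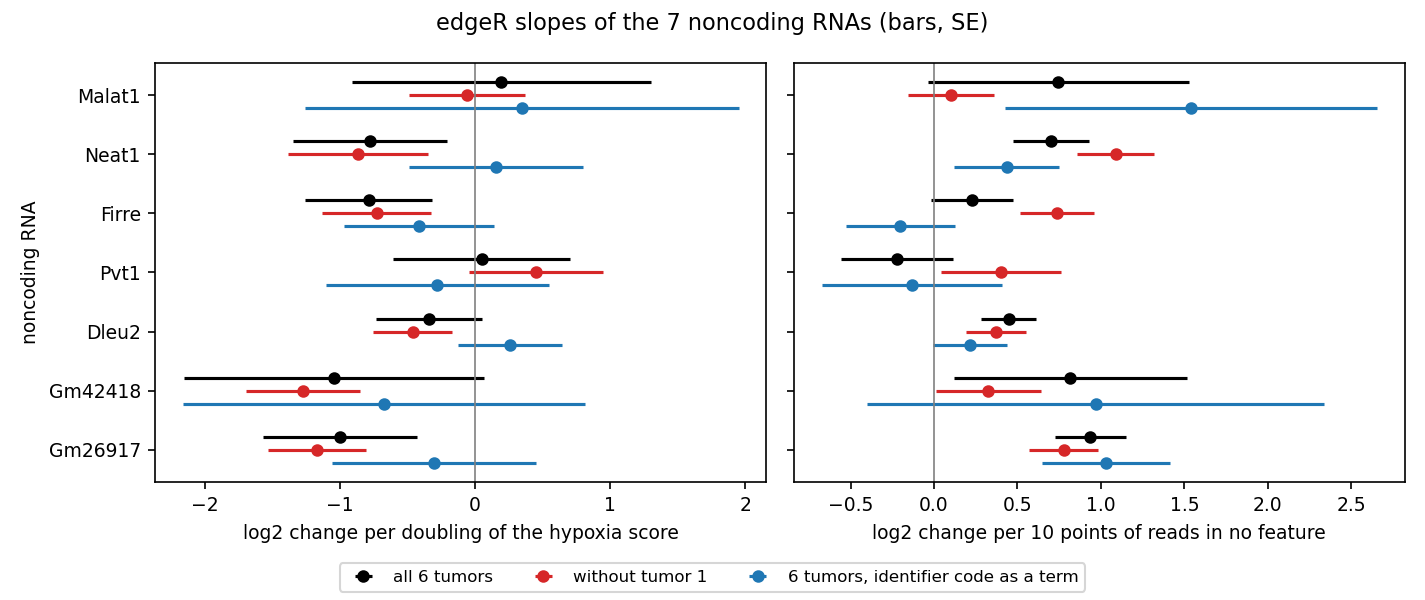
Log2 slope of each of the 7 noncoding RNAs per doubling of the hypoxia score (left) and per 10 percentage points of reads in no feature (right) from edgeR, with bars for the SE, over all 6 tumors, without tumor 1, and with the letter code of the mouse identifiers as a second term. The error of Malat1 on the score is 1.11 over 6 tumors, and Gm26917 stays to the right of 0 on the share of reads in all 3 fits.

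Other nuclear noncoding RNAs were measured beside these. Of 15 listed, 9 passed the filter, and none passed edgeR's test with either measure, while DESeq2 called 1, Airn, with the share of reads. All 9 had a positive slope on the share of reads in no feature (median 0.51), where the median over all genes was -0.05 and 45.3% of slopes were positive. An unadjusted p under 0.05 was seen in 5 of the 9, beside 14.3% of all genes. The most abundant were Xist, the RNA that coats the inactive X chromosome, Kcnq1ot1 and Airn, which silence imprinted genes in cis, and Mir17hg, the host of the miR-17 cluster. Xist had 764 CPM in tumor 1 and 1351 to 2710 in the others, and Kcnq1ot1 230 CPM in tumor 1 and 378 to 773 in the others. Airn had a slope of 0.71 ± 0.16 (edgeR adjusted p = 0.279), and Mir17hg 0.53 ± 0.20 (adjusted p = 0.322). Of the 9, 5 were lowest in tumor 1, beside 28.8% of all genes, and 2 had a ratio of at least 4, beside 22.9%. These were Meg3 and Lncpint, named after their values were seen, which reached at most 41 and 42 counts.

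Proteins of the nuclear bodies in which Neat1 and Malat1 are found were followed too. Of the 12 paraspeckle proteins listed, 0 had a ratio of at least 4 and none passed the edgeR test with either measure. In that test, 0 had an unadjusted p under 0.05 on the score and 1 on the share of reads. DESeq2 called 0 with the score and 1, Sfpq, with the share of reads. Of the 12, 5 were lowest in tumor 1 (28.8% of all genes) and 6 in tumor 6 (2420 of the 12088 genes). Sfpq, an essential paraspeckle protein, ranged from 131 CPM in tumor 1 to 513 in tumor 2 (slope 0.74 ± 0.17 per 10 points, edgeR adjusted p = 0.279). Nono, its partner, ranged from 171 to 349 CPM and Hnrnpk from 242 to 417. Among 14 proteins of nuclear speckles, edgeR called 0 with either measure and DESeq2 1, Srrm2, with the share of reads. Of these 14, 7 were lowest in tumor 1, beside 28.8% of all genes. The other 7 were lowest in tumor 6, beside 2420 of the 12088 genes. A ratio of at least 4 was found in 3, a share near the 22.9% of all genes. They were Srrm1 (12.3), Luc7l3 (7.87) and Acin1 (6.69), all lowest in tumor 1 and named after their values were seen. The most abundant of the list were Srrm2, Srsf11, Son and Srsf5. Srrm2 and Son, the scaffold proteins of the speckle, had 806 and 324 CPM in tumor 1, against 710 to 1618 and 733 to 1001 in the others. Srsf11 had 410 CPM in tumor 1 and 854 to 1425 in the others, and Srsf5 471 to 1168 over the 6.

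Of 10 partners and genomic neighbours, 8 passed the filter, 0 were lowest in tumor 1 (28.8% of all genes) and 4 were highest there (34.2% of all genes), and neither edgeR nor DESeq2 called any with either measure. Ltbp3 and Frmd8, which flank Malat1 and Neat1, did not show the fall of Malat1 in tumor 1. Ltbp3 had 331 CPM in tumor 1 and 202 to 312 in the others, and Frmd8 78.7 and 38.1 to 62.3. Slc25a45, named after its values were seen, was the only one with a ratio of at least 4 (4.33) and was highest in tumor 1.

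RNAs of ribosomes and other structural RNAs, most of which carry no long poly(A) tail, were mostly low in tumor 1, as Malat1 and Gm42418 were. Of 12 listed, 5 passed the filter, 4 of which had a ratio of at least 4 and were lowest in tumor 1 (22.9% and 28.8% of all genes). The mitochondrial ribosomal RNAs mt-Rnr2 and mt-Rnr1 had 1445 and 1197 CPM in tumor 1, against 12566 to 33656 and 4466 to 16172 in the others. Rn7sk, which restrains transcription elongation, had 18.7 CPM in tumor 1 and 34.9 to 135 in the others, and Rny3, a Y RNA, had 4.85 to 8.51 CPM with no fall in tumor 1. Rmrp, with at most 17 counts, was the other of the 4. None of the 5 passed edgeR's or DESeq2's test with either measure.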

How the data were processed

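RNA of FACS-sorted CD45-EPCAM+ cells from 6 tumors was sequenced from oligo(dT)-primed 3′ libraries with molecular identifiers. The authors used bbduk for trimming, STAR 2.5 for alignment to GRCm38 (mm10) and HTSeq for counting, and deposited 1 raw count per gene and library, without normalization. Whether reads were collapsed by identifier, and whether counting used the strand, is not given in the sources used here, so intervals cover counting error only. Lines that name no gene held the reads in no feature (15.6 to 41.0% of a file) and ambiguous reads, and entered neither library sizes nor tests.

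CPM was computed over all genes, and symbols, lengths and transcripts were those of GENCODE M21, which held 47224 of the 47643 identifiers. Genes were filtered with edgeR's filterByExpr (minimum count 10, in at least 3 libraries), which kept 12088. Slopes were tested with edgeR 4.0.16 (TMM, quasi-likelihood F test, Benjamini-Hochberg over all genes kept), with DESeq2 1.42.0 as an alternative, in R 4.3.3. The edgeR test was also run on simulated counts, with dispersions at the trend and slopes of size 3 in 200 genes. It called 94.5% of these on the score and 100% on the share of reads, and 5.5% and 6.54% of its calls were false. Slopes as small as those of the 7 RNAs were not simulated, nor dispersions above the trend. Correlations used log2(TMM-scaled CPM + 1) and exact permutation over the 720 orders, in Python 3.11.15 with scipy 1.17.1. No r with either measure was computed for Malat1 and Gm42418, in which 1 tumor stood apart. Ratios took a level of 3 counts in place of 0. Besides the 7 RNAs and the genes of the score, the text names the 3 profiles most like each RNA and up to 4 genes of highest mean CPM from each list, of which a few are not reported here. The noncoding RNAs and the lists were chosen with earlier results of these data known. Alternatives were other scalings, tools, filters, scores and pseudocounts, each tumor left out in turn, and, chosen after the data were seen, the letter code of the mouse identifiers as a term.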

Additional observations from a re-analysis of the deposited data

Results flagged for a closer look

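Of 28 measures compared over the 6 tumors, 4 had 1 tumor whose gap to the nearest other, as a share of the range, exceeded Dixon's 95% critical value for 6 values, a value that 12.9% of all genes exceeded. All 4 concern tumor 1, they share genes and libraries, and the levels of Malat1, Gm42418 and Gm26917 behind 3 of them are those on which the RNAs were chosen, so nothing is read from their number. For Malat1 the gap was 0.811 of the range on the log2(CPM + 1) scale, with 130 CPM in tumor 1 and at least 6192 CPM in the others. For Gm42418 it was 0.733, with 539 CPM against at least 22493 CPM. The summed ribosomal and structural RNAs had a gap of 0.634, at 2669 CPM for tumor 1 beside 17095 to 49875 CPM elsewhere, and mt-Rnr1 and mt-Rnr2 made up nearly all of it. The log2 ratio of Gm42418 to Gm26917 had a gap of 0.727, from a ratio of 0.792 in tumor 1 against at least 12.2. What sets the library of tumor 1 apart was not tested.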

How the results depend on the processing

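With each tumor left out in turn, the number of the 7 RNAs with a ratio of at least 4 ranged from 1 to 5, and the number of genes called on the hypoxia score from 0 to 2. On linear CPM, 1 RNA (Gm26917) had a tumor beyond Dixon's value. DESeq2 called 15 genes on the score and 215 on the share of reads in no feature, and edgeR without a filter on low counts called 10 on the score. No RNA of the 7 was called with any alternative except Gm26917 with DESeq2. The sign of uncalled slopes turned in some fits. On the score, leaving out a tumor gave -0.18 to 0.89 for Malat1, -0.17 to 0.45 for Pvt1 and -1.26 to 0.11 for Gm26917, and Pvt1 had -0.14 with a geometric mean score. On the share of reads, leaving out a tumor gave -0.63 to 0.40 for Pvt1. With the letter code of the mouse identifiers as a term, chosen after the data were seen, the slopes on the score were 0.15 for Neat1, -0.28 for Pvt1 and 0.26 for Dleu2, and that of Firre on the share of reads was -0.20. The cause was not tested. Other scalings left the median levels within the spread between tumors, apart from counts over DESeq2 size factors, which are on another scale. No paired analysis was possible because all 6 tumors belong to 1 group. With 6 tumors of 1 treatment, slopes for Malat1 and Gm42418 are imprecise, Pvt1 rests on 13 to 101 counts, and tumor 1 alone decides the widest ratios.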

Other observations

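Because Malat1 carries a run of 12 A inside its annotated transcript, the genes were grouped by the longest run of A in their longest transcript, after the levels had been seen, as a description without a test. Of 6365 genes with a run under 7, 18.2% were lowest in tumor 1, of 3253 genes with a run of 7 to 9, 38.6%, and of 2450 genes with a run of at least 10, 43.0%. Each gene is lowest in 1 tumor, so a larger share in tumor 1 leaves a smaller share to the other 5 together. The share lowest in each of the other 5 tumors was smaller with runs of at least 10 than with runs under 7. It was 28.0%, 24.0% and 16.5% in tumor 2 and 11.9%, 4.73% and 4.45% in tumor 4. The median log2 difference between tumor 1 and the median of the other tumors was 0.34, -0.22 and -0.30 in these groups. Longer transcripts hold longer runs, with median lengths of 2683, 3909 and 4477 bases. The genes were then parted by transcript length into 3 classes of equal size. The shares lowest in tumor 1 were 18.8%, 36.1% and 40.9% in the middle class and 22.3%, 44.2% and 46.8% in the longest. They rose likewise to 33.5% in the shortest. The median GC content was 52.3% in the group with short runs and 46.4% and 46.6% in the others, so runs of A and base composition cannot be told apart here. Of the 7 RNAs, Dleu2 had the longest run (13) and was lowest in tumor 1. Its 26.8 CPM there was not apart from 31.0 CPM in tumor 6 beyond counting error. Gm42418 and Gm26917, with longest runs of 6 and 4, were lowest in tumor 1 as well. Neat1 and Firre, with runs of 7, were not, and Pvt1, with a run of 9, was highest there.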
